A study of Mus musculus with 8 samples.

Results

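The genes described here are 10 immediate early transcription factor genes in mouse brown adipose tissue (BAT): Fos, Fosb, Jun, Junb, Egr1, Ier2, Nr4a1, Nr4a2, Nr4a3 and Atf3. The list was proposed with earlier results of these data known, its rows were then taken by symbol with no threshold on a value, and all 10 were found among the 49452 genes of the table. BAT came from male C57BL/6 mice in 4 groups of 2 libraries. In the temperature experiment the mice were 10 to 12 weeks old and were either kept at 22 °C (replicates 4 and 7) or exposed to 4 °C for 24 h (replicates 2 and 11). In the diet experiment the mice were 32 weeks old and had been fed a control diet (CD, replicates 6 and 8) or a high-fat diet (HFD, replicates 2 and 6) for 28 weeks. The labels call the food of the CD group normal chow, and which food it was is not settled here. The cold-exposed mice were fasted before sacrifice, and the study's methods leave unclear if this held for the 22 °C group. No genotype or agent was applied to any of the 4 groups. Values are FPKM, fragments per kilobase of transcript scaled to the mapped fragments of the library, so that levels of different genes can be set side by side.

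Immediate early genes are transcribed within minutes of a stimulus without the need for new protein, and their mRNAs are short-lived. Fos, Fosb, Jun and Junb encode subunits of the AP-1 dimer, Egr1 is a zinc finger factor, Nr4a1, Nr4a2 and Nr4a3 are orphan nuclear receptors, and Atf3 is a stress-induced member of the ATF/CREB family. Ier2 is a small nuclear protein that responds to growth factors. In brown adipocytes, noradrenaline acts through β-adrenergic receptors, cAMP and the factor CREB, which binds the cAMP response element (CRE), and Nr4a and Fos family genes are known to respond to this route.

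Promoter windows from 250 bases before to 50 bases after the transcription start (RefSeq, GRCm38.p6) were read for 8 of these genes. No window was read for Egr1 or Ier2, so nothing is said of their motifs. Those of Fos, Fosb, Nr4a2 and Nr4a3 are shown because these genes differed between the libraries of the temperature and diet experiments in the comparison given further on. The Fos window is chr12:85473640-85473939 on the plus strand, the Fosb window chr7:19309996-19310295 on the minus strand, the Nr4a2 window chr2:57123954-57124253 on the minus strand and the Nr4a3 window chr4:48045055-48045354 on the plus strand. Each is printed 5′ to 3′ along the gene. Capitals mark matches on either strand to the CRE core (TGACG), to the EGR motif (GCGNGGGCG) or to the TATA motif (TATAAA).
Fos: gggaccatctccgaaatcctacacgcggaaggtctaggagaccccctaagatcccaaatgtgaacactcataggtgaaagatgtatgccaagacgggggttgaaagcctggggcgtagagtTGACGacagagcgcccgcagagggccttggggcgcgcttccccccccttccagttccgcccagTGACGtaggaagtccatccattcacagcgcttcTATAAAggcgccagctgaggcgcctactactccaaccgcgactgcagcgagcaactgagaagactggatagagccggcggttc
Fosb: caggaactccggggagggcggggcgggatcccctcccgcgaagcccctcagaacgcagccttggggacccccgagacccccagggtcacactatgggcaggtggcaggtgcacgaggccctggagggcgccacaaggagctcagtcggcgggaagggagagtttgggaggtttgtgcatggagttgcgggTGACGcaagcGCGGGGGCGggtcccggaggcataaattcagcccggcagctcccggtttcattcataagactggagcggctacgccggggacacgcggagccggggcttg
Nr4a2: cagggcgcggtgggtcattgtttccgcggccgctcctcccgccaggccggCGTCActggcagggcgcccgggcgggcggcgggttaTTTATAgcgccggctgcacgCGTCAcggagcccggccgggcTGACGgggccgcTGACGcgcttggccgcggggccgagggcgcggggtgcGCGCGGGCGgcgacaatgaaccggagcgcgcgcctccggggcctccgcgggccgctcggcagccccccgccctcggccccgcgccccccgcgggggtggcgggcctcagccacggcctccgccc
Nr4a3: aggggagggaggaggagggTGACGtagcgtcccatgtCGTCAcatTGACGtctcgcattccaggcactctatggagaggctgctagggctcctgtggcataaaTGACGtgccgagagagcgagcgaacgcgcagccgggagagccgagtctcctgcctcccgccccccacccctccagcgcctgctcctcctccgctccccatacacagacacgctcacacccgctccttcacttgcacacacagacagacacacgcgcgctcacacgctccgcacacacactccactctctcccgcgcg

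The CRE core was present in 7 of the 8 windows (Fos, Fosb, Junb, Nr4a1, Nr4a2, Nr4a3 and Atf3, not Jun) and in 20.8% of all 32851 windows of the same length. Nr4a1, Nr4a2 and Nr4a3 each held 4 matches, Fos 2, and Fosb, Junb and Atf3 1 each. In Fos the matches began at bases -129 and -66 from the start and the TATA motif at base -33. The EGR motif was found in Fosb, Nr4a1 and Nr4a2 (3 of 8 windows, against 5.55% of all windows), and in Fosb it began at base -50, just downstream of the CRE core at base -60. The TATA motif was found in 3 of 8 windows (Fos, Junb and Nr4a2), against 13.6% of all. In Junb it began at base 1, and in Nr4a2 at base -164 on the opposite strand. The full CRE (TGACGTCA, which contains the CRE core), the AP-1 motif (TGANTCA) and the CArG box bound by serum response factor (CC, a run of A or T, then GG) had no match in these 8 windows, against 1.79%, 7.81% and 1.63% of all windows. GC content ranged from 58.7% (Fos) to 81.7% (Nr4a2), with a median of 52.7% over all windows. A match describes letters only, and the absence of one says nothing about a site elsewhere.

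The libraries had a feature that crossed the groups. The satellite-repeat gene Gm10800 exceeded 100 FPKM in CD replicate 8 (9038 FPKM), HFD replicate 2 (15726 FPKM), 4 °C replicate 11 (447 FPKM) and 22 °C replicate 4 (6464 FPKM), called satellite-high here. It reached at most 4.13 FPKM in the remaining library of every group. Among the satellite-high libraries, 4 °C replicate 11 was thus far below the others. The sample descriptions began with one of 2 codes whose meaning is not given. All temperature libraries and CD replicate 6 shared 1 code, and CD replicate 8 and both HFD libraries the other. Another feature followed the temperatures. The count of X genes above 0 FPKM was 0 in both 22 °C libraries and 781 and 840 at 4 °C. For mitochondrial genes it was 0 and 1 at 22 °C and 15 in both 4 °C libraries. In the diet experiment CD replicate 6 had 0 X genes and 1 mitochondrial gene above 0, unlike CD replicate 8 and both HFD libraries. The part of this feature in the values of autosomal genes was not tested. Steps between low values implied 89800000 to 123300000 fragments a library, and the lowest value of any of the 10 genes (Fosb in CD replicate 6) stood for about 20.5 fragments. The brown adipocyte marker Ucp1 was present in every library. It was at 699 and 1427 FPKM at 22 °C, 6462 and 5371 FPKM at 4 °C, 3519 and 2300 FPKM in CD and 2026 and 2976 FPKM in HFD. Of the markers of other cells looked at, only Ly6g (neutrophil) and Hoxc9 (white adipocyte) stayed under 0.1 FPKM in every library. The other neutrophil and white adipocyte markers exceeded this level, so signal of these cells was not absent. S100a8 (neutrophil) reached 7.03 FPKM in HFD replicate 6. Among the white adipocyte markers, Nnat reached 88.7 FPKM in HFD replicate 2 and Retn 231 FPKM in 4 °C replicate 2. In whole tissue, a change in the share of a cell type cannot be told apart from a change of RNA within it.

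All 10 genes were detected in every library. Summed over the 10 genes, the level was 64.2 and 95.4 FPKM in the 22 °C libraries, 72.1 and 82.2 FPKM at 4 °C, 16.9 and 20.1 FPKM in CD and 36.1 and 36.4 FPKM in HFD. The groups of the temperature experiment overlapped and both lay above HFD, which lay above CD. Fos had the highest mean level of the 10 at 22 °C (18.9 ± 11.9 FPKM, SD, n = 2) and at 4 °C (14.4 ± 0.348 FPKM), with Junb next at 15.0 ± 6.85 and 14.3 ± 1.32 FPKM. In both groups the difference between Fos and Junb was smaller than the larger SD. In CD, Junb (5.44 ± 1.93 FPKM) and Jun (4.67 ± 0.401 FPKM) led and Fos (0.589 ± 0.126 FPKM) was only the seventh. In HFD, Jun (10.9 ± 2.15 FPKM) and Junb (8.67 ± 0.661 FPKM) led and Fos (2.59 ± 0.0388 FPKM) was the sixth. The lowest mean level belonged to Nr4a3 in 22 °C, 4 °C and CD (0.823, 2.30 and 0.160 FPKM) and to Fosb in HFD (0.200 FPKM).

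**Figure D1:**
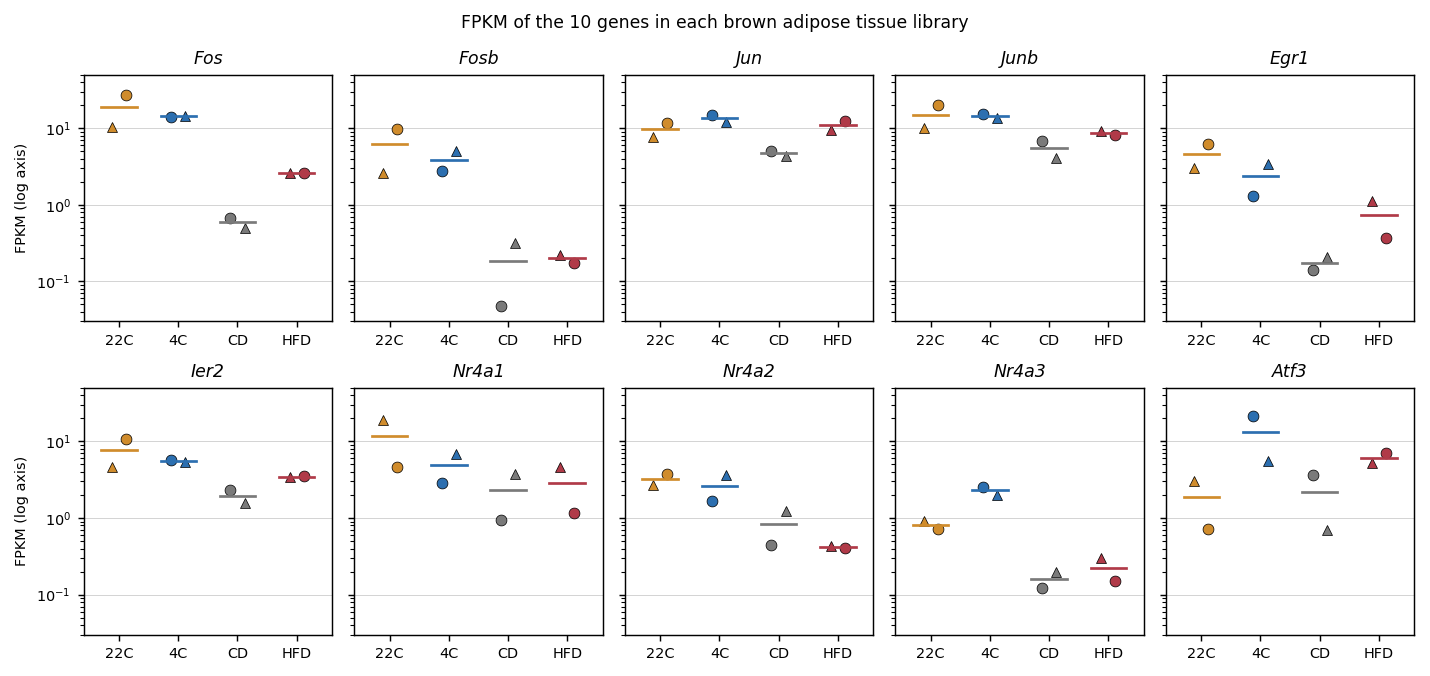
FPKM of each of the 10 genes (log axis) in the 8 libraries, by group, with triangles for satellite-high and circles for satellite-low libraries and a line at each group's mean (n = 2). Fosb, Fos and Nr4a3 show the widest gaps between the lowest temperature library and the highest diet library (8.14-fold, 3.99-fold and 2.40-fold), while Atf3 overlaps across them.

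Among the AP-1 subunits, Fos (ENSMUSG00000021250, chr12:85473890-85477273, plus strand) was at 10.4 and 27.3 FPKM in the 22 °C libraries, 14.1 and 14.6 FPKM at 4 °C, 0.678 and 0.499 FPKM in CD and 2.56 and 2.62 FPKM in HFD. The lowest temperature library was 3.99-fold above the highest diet library, and the HFD libraries lay above both CD libraries. Fosb (ENSMUSG00000003545, chr7:19302696-19310051, minus strand), a close relative of Fos, was at 2.59 and 9.83 FPKM at 22 °C, 2.74 and 5.0 FPKM at 4 °C, 0.0478 and 0.319 FPKM in CD and 0.224 and 0.176 FPKM in HFD. It had the widest gap of the 10 genes, 8.14-fold between the lowest temperature and the highest diet library, while the groups within each experiment overlapped.

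Junb (ENSMUSG00000052837, chr8:84974484-84978718, minus strand), a partner of the Fos proteins in AP-1, was at 10.1 and 19.8 FPKM at 22 °C, 15.3 and 13.4 FPKM at 4 °C, 6.80 and 4.08 FPKM in CD and 9.14 and 8.20 FPKM in HFD. Its gap was narrow, 1.11-fold between the lowest temperature and the highest diet library. Jun (ENSMUSG00000052684, chr4:95049034-95052222, minus strand), another partner of Fos, was at 7.57 and 11.8 FPKM at 22 °C, 14.7 and 12.2 FPKM at 4 °C, 4.96 and 4.39 FPKM in CD and 9.38 and 12.4 FPKM in HFD. For Jun the HFD libraries lay among the temperature libraries and the CD libraries alone were low. Jun overlaps the antisense gene Junos and Junb overlaps Prdx2 on the opposite strand, and since the use of strand in the counting is not stated in the sources used here, their values are uncertain to that extent.

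Egr1 (ENSMUSG00000038418, chr18:34859823-34864984, plus strand) was at 3.04 and 6.18 FPKM at 22 °C, 1.31 and 3.43 FPKM at 4 °C, 0.140 and 0.209 FPKM in CD and 1.11 and 0.366 FPKM in HFD. Its temperature libraries lay above its diet libraries by only 1.18-fold at the nearest pair, 4 °C replicate 2 and HFD replicate 2. Ier2 (ENSMUSG00000053560, chr8:84661331-84662852, minus strand) was at 4.59 and 10.7 FPKM at 22 °C, 5.73 and 5.37 FPKM at 4 °C, 2.31 and 1.58 FPKM in CD and 3.44 and 3.49 FPKM in HFD, with the same order of groups as Junb and no overlap between experiments. For Fos, Fosb, Junb, Egr1, Ier2 and Nr4a2 alike, 22 °C replicate 7 was the highest of the 8 libraries.

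The 3 nuclear receptor genes differed among themselves. Nr4a1 (ENSMUSG00000023034, chr15:101266846-101274792, plus strand) was at 19.2 and 4.6 FPKM at 22 °C, 2.88 and 6.93 FPKM at 4 °C, 0.940 and 3.74 FPKM in CD and 4.63 and 1.15 FPKM in HFD. In every group the satellite-high library held the higher Nr4a1 value, and the same was true of Fosb, Egr1 and Nr4a2 except at 22 °C and of Nr4a3 except at 4 °C. Nr4a2 (ENSMUSG00000026826, chr2:57106830-57124003, minus strand) was at 2.68 and 3.72 FPKM at 22 °C, 1.68 and 3.63 FPKM at 4 °C, 0.444 and 1.24 FPKM in CD and 0.437 and 0.405 FPKM in HFD, and alone among the 10 was lower in both HFD libraries than in both CD libraries. Nr4a3 (ENSMUSG00000028341, chr4:48045153-48086447, plus strand) was at 0.927 and 0.719 FPKM at 22 °C, 2.57 and 2.02 FPKM at 4 °C, 0.121 and 0.199 FPKM in CD and 0.300 and 0.152 FPKM in HFD. The 4 °C pair exceeded the 22 °C pair, which in turn exceeded all 4 diet libraries.

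Atf3 (ENSMUSG00000026628, chr1:191170296-191218039, minus strand) had a pattern of its own. It was at 3.04 and 0.715 FPKM at 22 °C, 21.1 and 5.57 FPKM at 4 °C, 3.67 and 0.696 FPKM in CD and 5.18 and 7.15 FPKM in HFD. It was higher in both 4 °C than in both 22 °C libraries and in both HFD than in both CD libraries, with no separation of the experiments. Atf3 overlaps the misc_RNA gene Gm24748 on the opposite strand, so its value carries the same uncertainty about strand.

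The first comparison, 4 °C against 22 °C, asked which genes changed in BAT after 24 h of cold. If the 22 °C mice were not fasted as the 4 °C mice were, cold and fasting cannot be told apart in it. The mean level at 4 °C was 7.12-fold that at 22 °C for Atf3, 2.79-fold for Nr4a3 and 1.39-fold for Jun. The means of Nr4a1 (0.413-fold), Egr1 (0.514-fold), Fosb (0.623-fold), Ier2 (0.724-fold), Fos (0.761-fold) and Nr4a2 (0.828-fold) were lower at 4 °C but their groups overlapped, and Junb was nearly level (0.958-fold). By limma on log2(FPKM + 1), 0 of the 10 genes passed the threshold (Benjamini-Hochberg adjusted p under 0.05 and a log2 fold change of at least 1), against 1.44% of the 17470 genes tested. The log2 fold change was 2.2 (SE 0.68, 95% interval 0.49 to 3.90, adjusted p = 0.137) for Atf3 and 0.85 (SE 0.17, 95% interval 0.44 to 1.27, adjusted p = 0.0628) for Nr4a3. These 2 had an unadjusted p under 0.05, as did 24.5% of all genes. The groups did not overlap for 3 of the 10 genes, all higher at 4 °C (Atf3, Jun and Nr4a3), where 37.9% of all genes were higher in this way, and for 0 of the 10 in the lower direction, where 20.6% were. The median log2 fold change of the 10 was -0.24, beside 0.07 over all genes.

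Single libraries decided several of these values. The lower mean of Nr4a1 at 4 °C rested on 22 °C replicate 4, the library at 19.2 FPKM. Its log2 fold change was -0.94 in the test as reported and -0.015 without that library. Without 4 °C replicate 2, the library at 21.1 FPKM, the log2 fold change of Atf3 was 1.32 (limma adjusted p = 0.292), and without 4 °C replicate 11 it was 3.07 (adjusted p = 0.0704). Without 22 °C replicate 7, limma placed Nr4a1 (log2 fold change -1.86, adjusted p = 0.00399) and Atf3 (1.58, adjusted p = 0.0286) past the threshold, and without 22 °C replicate 4 Atf3 was the only one of the 10 to pass (2.81, adjusted p = 0.00138), each time with the lone library of a group assumed to vary like the other group. Calls over all genes also rose in these fits, from 252 to 766 without replicate 7 and to 512 without replicate 4. Between the satellite-high libraries the difference of log2(FPKM + 1) at 4 °C was 0.45 for Fos, 0.74 for Fosb, 0.13 for Egr1, 0.19 for Ier2 and 0.33 for Nr4a2. Between the satellite-low libraries it was -0.91, -1.53, -1.64, -0.80 and -0.82 for the same genes, so that none of these 5 kept its sign in both. Atf3 (0.70 and 3.69) and Nr4a3 (0.65 and 1.05) were higher at 4 °C in both pairs. Of 10 brown adipocyte markers, 2 rose past the threshold in the limma fit, where 1.22% of all genes did. With no filter or with no trend, 0 of all genes passed. Markers of other cells moved too. All 11 skeletal muscle markers tested were higher at 4 °C, as were 61.0% of all genes. Their median log2 fold change was 3.30, beside 0.07 over all genes. Their sum was 1853 and 4138 FPKM at 4 °C against 108 and 539 FPKM at 22 °C, and Ckm (muscle creatine kinase) was the highest of them. Their part in the values of the 10 genes was not tested.

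Several relatives of the AP-1 and EGR genes were higher at 4 °C than at 22 °C. Of 14 relatives tested, 4 rose past the threshold and 0 fell, where 1.22% of all genes rose, and the median log2 fold change was 0.76. Maff, a small Maf protein, was at 1.61 and 1.09 FPKM at 22 °C and 15.1 and 12 FPKM at 4 °C (log2 fold change 2.63, SE 0.22, limma adjusted p = 0.0207). Nfil3, a repressor of the bZIP class, was at 1.27 and 1.19 FPKM at 22 °C and 16.1 and 12 FPKM at 4 °C (2.74, SE 0.21, adjusted p = 0.0196). Fosl2, the Fos-related antigen Fra-2, rose from 1.88 and 2.18 to 6.88 and 8.39 FPKM (1.51, SE 0.19, adjusted p = 0.0434), and Mafk, another small Maf, from 3.23 and 3.77 to 11.4 and 9.55 FPKM (1.35, SE 0.19, adjusted p = 0.0466). In all 4 the cold libraries lay above every other library of the 8. Their sign held under all 18 alternatives, but all 4 calls were lost without 4 °C replicate 2 (adjusted p from 0.0836 to 0.121), with no filter (0.130 to 0.170) and with no trend (0.0601 to 0.0742). Mafk also missed the threshold when rescaled (log2 fold change 0.99) and without 22 °C replicate 4 (adjusted p = 0.105), and Fosl2 without 4 °C replicate 11 (0.05003).

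**Figure D2:**
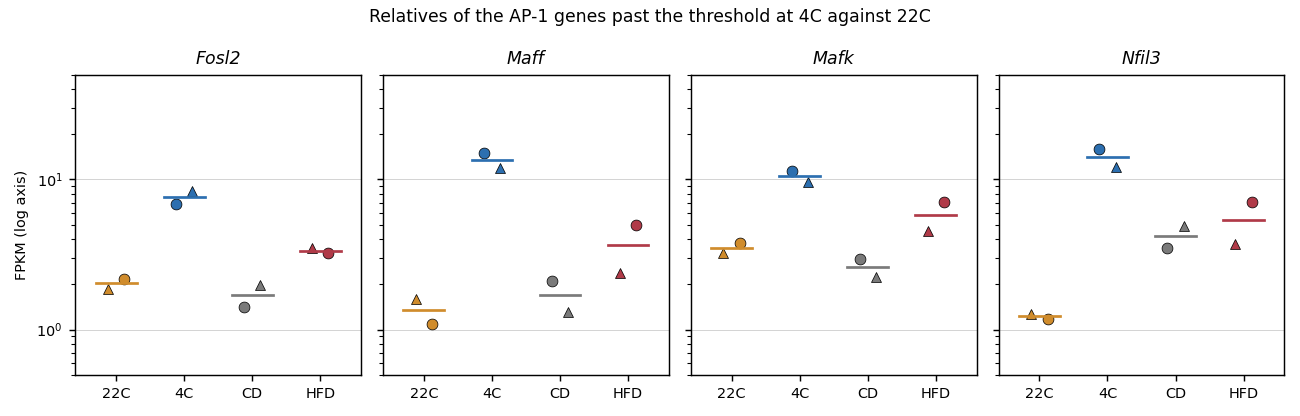
FPKM (log axis) of the 4 relatives of the AP-1 genes that passed the threshold at 4 °C, in the 8 libraries by group, with triangles for satellite-high and circles for satellite-low libraries and a line at the mean of each group (n = 2). Both 4 °C libraries lie above all other libraries for each gene.

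Among 35 other immediate early genes tested, 3 rose at 4 °C (Cebpd, Ctgf and Arc, with log2 fold changes of 2.21, 1.86 and 1.37) and 0 fell, beside the 1.22% of all genes that rose, with a median of 0.79. Cebpd encodes the factor C/EBPδ, Ctgf a matrix-associated signalling protein and Arc a synaptic plasticity protein. In the ATF4 stress axis, in which Atf3 is also known as a target, 3 of 10 genes rose: Fgf21 (3.16), the secreted hormone, Ddit4 (2.61), an inhibitor of mTORC1, and Atf5 (2.36), with limma adjusted p values of 0.0298, 0.0196 and 0.0442. These 6 calls too were lost without 4 °C replicate 2 (adjusted p from 0.0836 to 0.126), with no filter (0.130 to 0.176) and with no trend (0.0593 to 0.0841). Arc was also lost with a pseudocount of 0.1 (0.0509), and Arc and Atf5 without 4 °C replicate 11 (0.0545 and 0.0618). Atf4 itself was at 27.5 and 32.5 FPKM at 22 °C and 136 and 82.5 FPKM at 4 °C but did not pass (1.79, adjusted p = 0.0558). None of the 9 genes of the CREB axis, the 16 of the SRF and MAP kinase axis and the 8 feedback inhibitors passed, with medians of 0.38, 0.19 and 0.34. The most abundant of these, the CREB coactivator kinase Sik2, the MAP kinase kinase Map2k2 and the ERK phosphatase Dusp6, had log2 fold changes of 0.38, 0.61 and 1.02.

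The second comparison, HFD against CD, asked what long feeding of a high-fat diet changed. Fos was at 4.40-fold and Egr1 at 4.22-fold their CD means, followed by Atf3 (2.83-fold), Jun (2.33-fold), Ier2 (1.78-fold) and Junb (1.59-fold). Nr4a2 was at 0.499-fold, while Nr4a3 (1.41-fold), Nr4a1 (1.24-fold) and Fosb (1.09-fold) overlapped between the diets. By limma 0 of the 10 passed the threshold, against 0.0684% of the 17535 genes tested. The log2 fold change was 1.18 for Fos (SE 0.21, 95% interval 0.68 to 1.68, adjusted p = 0.138), 1.06 for Jun (SE 0.33, adjusted p = 0.222), 1.34 for Atf3 (SE 0.48, adjusted p = 0.277) and 0.53 for Egr1 (SE 0.20, adjusted p = 0.283). These 4 had an unadjusted p under 0.05, as did 14.4% of all genes. Both HFD libraries lay above both CD libraries for 6 of the 10 genes (Fos, Jun, Junb, Egr1, Ier2 and Atf3), where 39.9% of all genes did, and below them for 1 (Nr4a2), where 5.8% did. The median log2 fold change of the 10 was 0.57, beside 0.18 over all genes. Egr1 depended on single libraries, with a log2 fold change of 0.22 without HFD replicate 2 and 0.85 without HFD replicate 6. So did Nr4a2, at -0.34 in the test as reported, -0.023 without CD replicate 8 and -0.66 without CD replicate 6.

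Fos, Jun and Atf3 passed the threshold once the satellite class of a library (high or low Gm10800, a split made from these data and not given in the labels) entered the limma fit as a covariate (adjusted p = 0.00605, 0.0112 and 0.0199). Over all genes this fit placed 744 past the threshold, against 12 without the covariate. Without CD replicate 6, which leaves 3 libraries of 1 description code, Fos (log2 fold change 1.26, adjusted p = 0.0101) and Atf3 (2.07, adjusted p = 1.5e-04) passed, and without HFD replicate 2 Fos passed (1.19, adjusted p = 0.0199), in each case with the lone library assumed to vary like the other group. Over all genes these 2 fits called 727 and 343. Without CD replicate 8, Atf3 dropped to 0.61 (adjusted p = 0.611) and Fos missed the threshold (1.1, adjusted p = 0.0612), and without HFD replicate 6 neither passed (Atf3 1.14, adjusted p = 0.605, and Fos 1.17, adjusted p = 0.0963). All 9 macrophage markers were higher in HFD, as were 79.3% of all genes, with a median log2 fold change of 1.83 beside 0.18. Their sum was 328 and 356 FPKM in HFD against 59.0 and 150 FPKM in CD, with Lyz2 the highest. All 11 muscle markers were lower in HFD, at a sum of 15.2 and 177 against 557 and 1437 FPKM. The white adipocyte markers summed to 167 and 175 FPKM in HFD against 13.5 and 23.1 FPKM in CD, with Lep (log2 fold change 5.0) and Nnat (3.94) past the threshold in the limma fit, 2 of 5 tested. All 5 fibroblast markers were higher in HFD as well, beside the 79.3% of all genes, at a sum of 231 and 255 against 84.7 and 95 FPKM. Their median log2 fold change was 1.39, beside 0.18 over all genes. The part of these cells in the values of Fos, Jun and Atf3 was not tested. In the other lists of the pathway (13 AP-1 and EGR relatives, 35 other immediate early genes, 9 of the CREB axis, 16 of the SRF and MAP kinase axis, 8 feedback inhibitors and 10 of the ATF4 axis), 0 genes passed with HFD. Their medians ran from 0.38 (SRF and MAP kinase axis) to 0.71 (other immediate early genes).

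**Figure D3:**
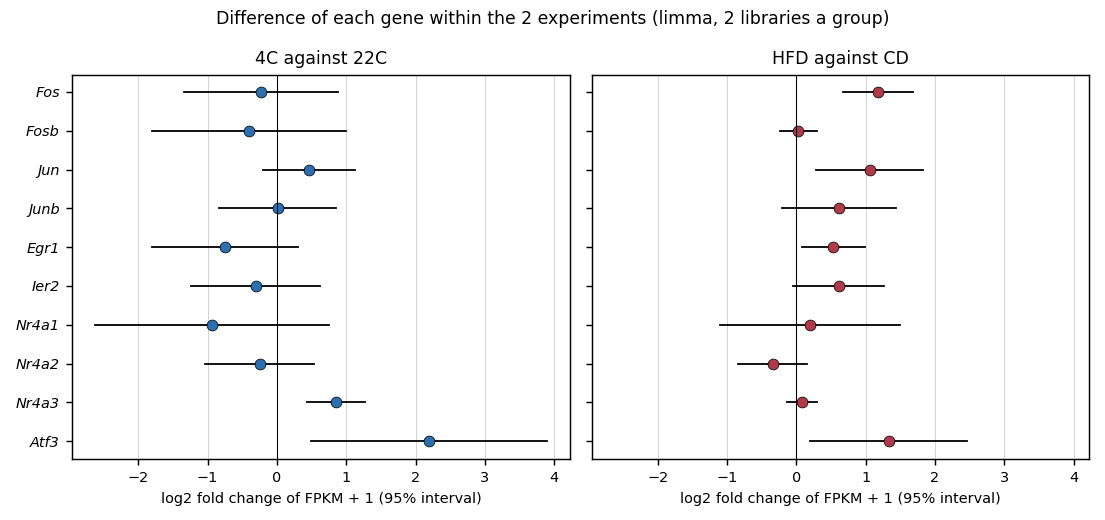
Log2 fold change of FPKM + 1 for the 10 genes at 4 °C against 22 °C (left) and HFD against CD (right), as points with 95% intervals from limma (2 libraries a group). The intervals of Atf3 and Nr4a3 lie above 0 at 4 °C, and those of Fos, Jun, Egr1 and Atf3 lie above 0 in HFD.

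Whether cold and diet moved a gene differently was tested as the difference of the 2 effects in a fit of all 8 libraries. In this test 0 of the 10 genes passed, against 1.04% of the 18894 genes. Fos (cold effect minus diet effect -1.41, SE 0.55, adjusted p = 0.231) and Nr4a3 (0.77, SE 0.19, adjusted p = 0.0949) had an unadjusted p under 0.05, as did 18.4% of all genes. Fos was thus not shown to respond differently to cold and to diet at this number of libraries, and the same applies to the other 9.

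The largest ratios of means lay between the experiments. Averaged over 4 libraries each, the level in the temperature libraries was 26.3-fold that in the diet libraries for Fosb, 10.5-fold for Fos, 8.08-fold for Nr4a3, 7.65-fold for Egr1 and 4.63-fold for Nr4a2. The ratio was 3.21-fold for Nr4a1, 2.44-fold for Ier2, 2.08-fold for Junb, 1.82-fold for Atf3 and 1.49-fold for Jun. This comparison of the mean of 22 °C and 4 °C with the mean of CD and HFD was chosen after the values had been seen. The experiments differed in the age of the mice, in the 24 h of cold of the 4 °C group and in the high-fat diet of the HFD group. They may also have differed in the fasting, in the food of the other groups and in any step carried out separately. These cannot be told apart.

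By limma, 5 of the 10 genes were past the threshold, all higher in the temperature libraries, against 0.535% of all 18894 genes. Their log2 fold changes were 2.80 for Fos (SE 0.27, adjusted p = 0.0106), 2.19 for Fosb (SE 0.34, adjusted p = 0.0299), 1.56 for Egr1 (SE 0.28, adjusted p = 0.0429), 1.26 for Nr4a2 (SE 0.22, adjusted p = 0.0423) and 1.04 for Nr4a3 (SE 0.10, adjusted p = 0.0106). Of the rest, Ier2 (1.01, adjusted p = 0.0831), Junb (0.97, adjusted p = 0.0937), Nr4a1 (1.24, adjusted p = 0.260), Jun (0.59, adjusted p = 0.158) and Atf3 (0.33, adjusted p = 0.791) did not pass. For 7 of the 10 (Fos, Fosb, Junb, Egr1, Ier2, Nr4a2 and Nr4a3) each temperature library lay above each diet library, as it did for 4.38% of all genes. The median log2 fold change of the 10 was 1.14, beside 0.01 over all genes. Because the genes and the comparison were chosen with values of these data known, the p-values and counts describe a gap already seen. They are no independent test of it. Each side is a single experiment, so the p-values measure the spread between libraries and not between experiments.

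The sign of these 5 differences held under all 24 alternatives run, while the calls did not. With the satellite class as a covariate, Ier2 and Nr4a1 passed the threshold as well, in a fit that also called more of all genes. Within the satellite-high libraries the difference was 2.53 for Fos, 1.87 for Fosb, 1.41 for Egr1, 1.2 for Nr4a2 and 0.95 for Nr4a3, and within the satellite-low libraries it was 3.07, 2.52, 1.71, 1.32 and 1.12. CD replicate 6 shared the description code of the temperature libraries, and against this single diet library the differences were 3.31, 2.38, 1.86, 1.41 and 1.13. Between the control groups, 22 °C and CD, the differences were 3.50, 2.41, 2.2, 1.21 and 0.65 with no call (0.143 to 0.268). Without HFD replicate 6 none of the 10 passed, with log2 fold changes of 2.81 for Fos and 2.18 for Fosb and adjusted p values from 0.0559 to 0.133 for the 5 genes, and leaving out any other library left 1 to 4 of them past the threshold.

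**Figure D4:**
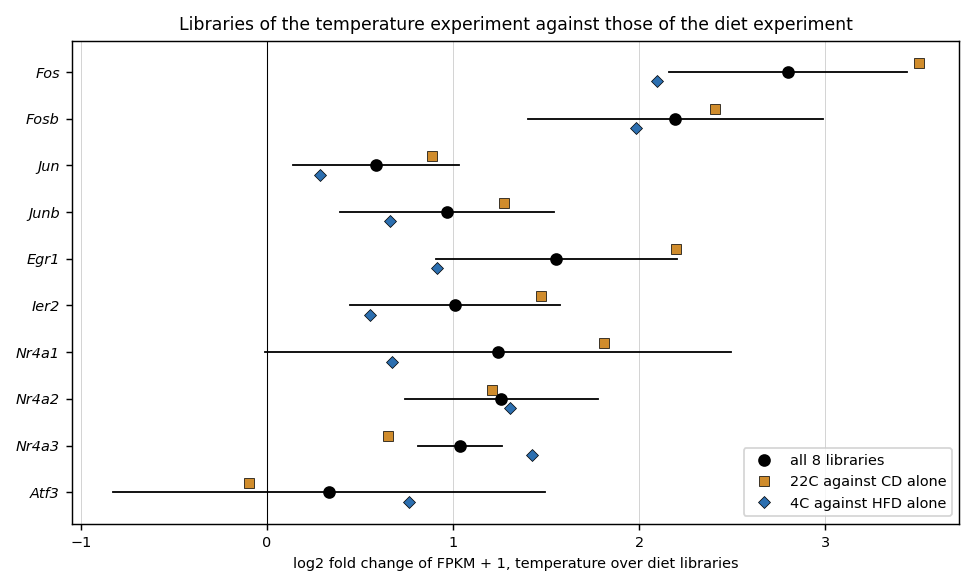
Log2 fold change of FPKM + 1 of the temperature libraries over the diet libraries for the 10 genes, with black points and 95% intervals for all 8 libraries (limma), squares for 22 °C against CD alone and diamonds for 4 °C against HFD alone. Fos and Fosb lie farthest to the right in all 3, and the intervals of Atf3 and Nr4a1 span 0.

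Some other immediate early genes were also higher in the temperature libraries. Of 35 tested, 7 were higher in the temperature libraries past the threshold and 0 lower, beside 0.535% of all genes higher in this way, with a median of 0.68 beside 0.01 over all genes. The largest log2 fold changes among these 7 were those of the kinase gene Pim1 (1.91, limma adjusted p = 0.0196), the pseudokinase gene Trib1 (1.64, adjusted p = 0.0208), Zfp36, whose product destabilizes AU-rich mRNAs (1.44, adjusted p = 0.0204), and the salt-inducible kinase gene Sik1 (1.25, adjusted p = 0.0225). Their sign held under all 24 alternatives, but all 4 calls were lost without HFD replicate 6 (adjusted p from 0.0690 to 0.0938), without HFD replicate 2 or any of 22 °C replicates 4 and 7 and 4 °C replicate 2 (0.0540 to 0.0982), with no filter (0.0561 to 0.0654), in the libraries of 1 description code (0.0937 to 0.158) and for 22 °C against CD alone (0.219 to 0.268). Sik1 was also lost without 4 °C replicate 11 (0.0529) and Zfp36 for 4 °C against HFD alone (0.0605). Zfp36 was at 6.06 and 8.84 FPKM at 22 °C, 7.90 and 10.3 FPKM at 4 °C, 1.12 and 1.78 FPKM in CD and 3.48 and 3.83 FPKM in HFD. None of the 14 AP-1 and EGR relatives, the 9 genes of the CREB axis, the 16 of the SRF and MAP kinase axis, the 8 feedback inhibitors and the 10 of the ATF4 axis passed, with medians from 0.08 to 0.30. The sums of the erythroid markers were lower in the temperature libraries (64.4 to 349 FPKM) than in the diet libraries (436 to 1272 FPKM), and so were those of the neutrophil markers (0.582 to 2.47 against 3.30 to 16.2 FPKM), of which S100a9 was past the threshold (log2 fold change -1.49, limma adjusted p = 0.0298). All 11 skeletal muscle markers had a higher mean in the temperature libraries, as did 53.7% of all genes. Their median difference was 1.75 on the log2 scale, with none past the threshold. The sums of these muscle markers overlapped (108 to 4138 against 15.2 to 1437 FPKM). Of the 5 white adipocyte markers tested, Retn (resistin) was at 50.2 to 231 FPKM in the temperature libraries and 7.89 to 18.1 FPKM in the diet libraries (log2 fold change 2.97, adjusted p = 0.0132). Lep (leptin) had a lower mean in the temperature libraries (-2.09, adjusted p = 0.0443), and both were past the threshold in the limma fit. Lep was high in HFD alone, at 61.7 and 83.5 FPKM. It was at 7.39 and 3.72 FPKM at 22 °C, 0.769 and 0.175 FPKM at 4 °C and 2.93 and 0.307 FPKM in CD, so the experiments overlapped. Of 10 brown adipocyte markers, 1 was higher in the temperature libraries past the threshold and 0 were lower. The sums of the macrophage markers overlapped between the experiments. The part of these cells in the values of the 10 genes was not tested.

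Across the 8 libraries the 10 genes did not share 1 profile. Their correlation with the mean log2(FPKM + 1) profile of the 10 was highest for Fos (Pearson r = 0.989) and lowest for Nr4a1 (0.566) and Atf3 (0.228), leaving out Nr4a3, whose mean was under 1 FPKM. Outside the list, the genes most like that mean profile among 10877 screened were Gata2 (r = 0.982), St3gal1 (0.981), Slc12a7 (0.978), Unk (0.975) and Hlx (0.973). These values describe 8 libraries in which each pair of groups shares an experiment, and much of each r is the gap between the experiments. Gata2, a GATA factor, was at 2.1 and 2.93 FPKM at 22 °C, 2.85 and 2.64 FPKM at 4 °C, 1.06 and 0.963 FPKM in CD and 1.56 and 1.60 FPKM in HFD, with CD lowest and HFD next, as for the sum of the 10 genes.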

How the data were processed

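RNA-Seq of BAT gave 8 libraries in 4 groups of 2, taken from the sample labels. That replicates were separate mice follows from the labels' numbers alone, so p-values measure the spread between these libraries. Per the study's methods and the submitters' processing notes, the authors depleted rRNA, made directional paired-end libraries and mapped reads to GRCm38 with TopHat2 2.0.10. They deposited FPKM per Ensembl gene from Cufflinks (2.2.1 in the notes). The methods mention no pooling for these libraries. The authors' DESeq2 counts were not used here, so log2(FPKM + 1) was tested with limma 3.58.1 (trend, R 4.3.3) over autosomal genes with at least 0.1 FPKM in at least 2 libraries of a comparison. Genes of X, Y and the mitochondrion were left out, since X genes are listed at 0 in both 22 °C libraries and CD replicate 6. P-values are two-sided and adjusted by Benjamini-Hochberg over all genes. Fold changes on this scale understate low genes. No count test was run, because one fragment is worth a different FPKM in each gene. Low FPKM values of single-exon genes were whole multiples of 1 fragment (97.6% to 98.6% within 0.1 fragment), which gave the depth. These figures cover counting error only. Symbols and overlaps came from GENCODE M21, to which 49109 of 49452 genes matched. The limma step was tested on simulated data. The 10 genes, the other lists and the marker lists were chosen with earlier results of these data known. All 10 genes were named, with up to 4 genes past the threshold (largest change) or the most abundant of each other list, the most abundant marker of each list and the 5 genes most like the mean profile of the 10. Alternatives were the pseudocount, filters, scaling, kept X genes, the satellite class (Gm10800 above or below 100 FPKM, a split made from the data) as a covariate, trend, thresholds and leaving out each library. Figures and motif searches used Python 3.11.15, pandas 2.3.3 and matplotlib 3.10.9.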

Additional observations from a re-analysis of the deposited data

How the results depend on the processing

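No paired analysis was possible because 22 °C and 4 °C share no replicate number and CD and HFD share only 6. At 4 °C against 22 °C, 0 of the 10 genes passed the threshold in the test as reported and 0 under all alternatives with a test, except when 1 library was left out (0 to 2, beside 1 to 766 of all genes). For HFD against CD the count was 3 with the satellite class as a covariate (744 of all genes) and 0 to 2 leaving out 1 library (99 to 727 of all genes). By the fold change alone it was 1 at 4 °C (1097 of all genes), 3 in HFD (770 of all genes) and 3 for the difference of the effects (1701 of all genes). For that difference it stayed at 0 otherwise. Between the experiments it was 2 with no filter, 3 with X, Y and mitochondrial genes kept, 2 with no trend, 7 with the satellite class as a covariate (262 of all genes), 7 by the fold change alone, 4 with quantile normalization or rescaling, 0 in the libraries of 1 description code (with CD replicate 6 the lone diet library, assumed to vary like the other groups), 0 for 22 °C against CD alone, 4 for 4 °C against HFD alone (695 of all genes) and 0 to 4 leaving out 1 library. Over all genes, the count past the threshold ran from 0 to 1097 (252 as reported) at 4 °C, from 0 to 770 (12) in HFD, from 6 to 1701 (196) for the difference and from 0 to 695 (142) between the experiments. The cause of these shifts was not tested.

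Signs turned as follows. At 4 °C, Junb turned from 0.01 to -0.36 with quantile normalization, -0.12 with median centring, -0.38 when rescaled to the autosomal sum and -0.36 within the satellite-low libraries, and within the satellite-high libraries Fos was at 0.45, Fosb at 0.74, Egr1 at 0.13, Ier2 at 0.19 and Nr4a2 at 0.33. Leaving out 1 library gave -0.44 to 0.46 for Junb, -0.88 to 0.43 for Fos, -1.19 to 0.40 for Fosb, -0.84 to 0.23 for Ier2 and -0.64 to 0.15 for Nr4a2. In HFD, Fosb was at -0.055 with quantile normalization, -0.29 with median centring, -0.022 when rescaled and -0.11 within the satellite-high libraries, Nr4a1 at -0.11 with quantile normalization and -0.12 with median centring, and Nr4a3 at -0.24 with median centring. Leaving out 1 library gave -0.14 to 0.19 for Fosb, -0.50 to 0.89 for Nr4a1 and -0.0090 to 0.17 for Nr4a3. For the difference of the effects, Nr4a2 was at -0.10 when rescaled, and leaving out 1 library gave -0.30 to 0.49 for Nr4a2, -1.22 to 0.37 for Fosb and -0.015 to 1.74 for Atf3. Between the experiments, Atf3 was at -0.10 for 22 °C against CD alone and -0.0014 within the satellite-low libraries, and at -0.10 to 0.77 leaving out 1 library. Median centring moved the median of all genes from 0.18 to -0.14 in HFD, quantile normalization from 0.18 to -0.01, and rescaling from 0.07 to -0.10 at 4 °C. The other signs of the 10 genes in these 4 comparisons held under the alternatives run.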
